A study of Mus musculus with 12 samples.

Results

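The enzymes that cut and cross-link the extracellular matrix, and the inhibitors that hold them back, were followed in white adipose tissue of mice kept in the cold. Members were the genes of the matrix metalloproteinases (Mmp), the ADAMTS proteases and ADAMTS-like proteins, the tissue inhibitors of metalloproteinases (Timp) and the lysyl oxidases (Lox and Loxl), taken by gene symbol and not by any measured value. The arrays held 46 such genes on 86 probe sets, of 18194 genes and 45101 probe sets in all. Of these, 34 genes and 57 probe sets were bright enough to test. A gene was read from its brightest probe set, and Timp2 and Timp3 were read from every probe set. Male C57/BL6 mice, 6 to 8 weeks old and housed at 22 °C, spent 1 to 3 weeks at 18 °C first according to the labels, and 1 week or 5 weeks at 4 °C after that. The 4 groups of 3 arrays were cold for 1 week, cold for 5 weeks, and a control group for each duration. The labels place the controls at 30 °C in the titles and at room temperature in the source names. They do not name the fat depot, nor whether each array stands for an animal of its own. The p-values therefore rest on the spread from array to array, which may be technical.

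Matrix metalloproteinases are zinc proteases that are made as inactive proenzymes and cleave collagens, laminins, fibronectin and other matrix proteins. TIMPs bind them tightly and block the active site; Timp2 also takes part in the activation of pro-Mmp2 by Mmp14 at the cell surface, and Timp3 blocks several ADAM and ADAMTS proteases too. ADAMTS proteases cleave proteoglycans such as versican and aggrecan or trim procollagens, ADAMTS-like proteins share their ancillary domains but lack the protease domain, and lysyl oxidases oxidise lysines of collagen and elastin so that the fibres cross-link. In adipose tissue these proteins come largely from stromal and immune cells as well as adipocytes and take part in the remodelling of the matrix around growing fat cells and vessels.

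Promoters are shown for 4 members that fell at both durations, because they stand for 4 roles (a stromelysin, a membrane-type protease, a proteoglycanase and an inhibitor) and differ in the motifs they hold. Each is the 250 bases before the RefSeq start of the gene on GRCm38.p6, read 5′ to 3′ along the gene's strand. Capitals mark matches, on either strand, to the AP-1 motif TGANTCA, the TATA box TATAAA and the GC box GGGCGG.
Mmp3, chr9:7445572-7445821, plus strand: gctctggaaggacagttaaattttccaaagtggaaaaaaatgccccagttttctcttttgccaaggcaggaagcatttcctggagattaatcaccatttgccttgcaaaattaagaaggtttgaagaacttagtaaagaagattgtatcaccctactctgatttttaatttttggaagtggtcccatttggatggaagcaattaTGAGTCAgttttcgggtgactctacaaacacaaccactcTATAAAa
Mmp14, chr14:54431348-54431597, plus strand: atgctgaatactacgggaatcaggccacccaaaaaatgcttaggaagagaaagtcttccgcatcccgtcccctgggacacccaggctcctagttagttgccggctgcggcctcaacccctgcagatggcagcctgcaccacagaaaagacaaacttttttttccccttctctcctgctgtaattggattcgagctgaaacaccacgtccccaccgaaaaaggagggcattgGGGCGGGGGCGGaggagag
Adamts1, chr16:85803114-85803363, minus strand: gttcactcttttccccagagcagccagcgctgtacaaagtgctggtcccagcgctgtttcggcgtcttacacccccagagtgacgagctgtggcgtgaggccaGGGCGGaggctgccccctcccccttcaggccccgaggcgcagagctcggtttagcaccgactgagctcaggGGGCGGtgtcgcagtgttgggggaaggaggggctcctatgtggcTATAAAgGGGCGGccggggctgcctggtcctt
Timp4, chr6:115252206-115252455, minus strand: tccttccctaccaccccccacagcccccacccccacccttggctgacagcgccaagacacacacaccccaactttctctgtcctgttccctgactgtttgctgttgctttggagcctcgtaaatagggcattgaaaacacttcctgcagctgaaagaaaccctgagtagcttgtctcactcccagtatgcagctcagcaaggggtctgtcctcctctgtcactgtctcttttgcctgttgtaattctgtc

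The promoter of Mmp3 held an AP-1 match whose first base lay 46 bases before the start and a TATA box match 7 bases before it. That of Mmp14 held 2 adjoining GC box matches, at 19 and 13 bases before the start. That of Adamts1 held a TATA box match at 32 bases and GC box matches at 147, 76 and 25 bases before the start. The window of Timp4 held none of these letters. A promoter was matched for 20 of the 34 tested members, in a search that left out a single chromosome. Of these 20, 3 held the AP-1 motif (Mmp3, Mmp7 and Mmp12, whose genes lie in one cluster), 4 the TATA box and 14 the GC box. These counts are per gene, with a match in any of its promoters, of which there were 23 in all. Over all 32851 promoters of the table, counted per promoter and with no chromosome left out, the motifs were present in 6.75%, 12.4% and 32.7%. Mmp3 fell, Mmp7 did not fall at either duration and Mmp12 passed the test at neither, so these letters were shared by members with different values.

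Array medians lay between log2 4.79 and 4.89, and the mean correlation of an array with the 2 others of its group was 0.992 to 0.998. RNA quality differed between arrays. The Gapdh control probe sets read 0.90 to 3.12 log2 units higher at the 3′ than at the 5′ end on the 3 arrays of 1 week control, and 0.19 to 3.01 higher on those of 5 weeks cold. This difference was -0.08 to 0.34 in 1 week cold and -0.08 to 0.03 in 5 weeks control. The Actb difference was 1.84 to 2.80 in 5 weeks cold and 1.01 to 1.35 in the other groups. Skeletal muscle markers read 8.12 to 8.35 on average in 5 weeks control and 5.25 to 5.99 in 1 week control and 5 weeks cold. On the arrays of 1 week cold they read 5.51, 9.62 and 5.60, so 1 array alone was high. The white adipocyte list averaged 13.04 to 13.62 over the 12 arrays, and all 10 tested brown or beige adipocyte markers rose in the cold at both durations. The tissue label itself was not tested.

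The comparison of cold with control after 1 week asks how the matrix-cutting system stands early in cold exposure. More members fell than rose. Of 34 tested members, 13 fell, 3 rose and 18 did not pass the test (limma, Benjamini-Hochberg adjusted p under 0.05 over 12856 genes). The share of members called was 47.1%, against 49.5% of all tested genes, and the share that fell was 38.2%, against 31.6%. The share that rose was 8.82%, against 17.9%. The median member changed by -0.29 on the log2 scale and the median gene by -0.08. In 12 of the 16 called members the change was at least 1.5-fold, a share that was not computed over all called genes. The share called is near that of all genes.

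After 5 weeks 12 members fell, 2 rose and 20 did not pass the test. The share called was 41.2%, against 36.2% of all tested genes, the share that fell 35.3%, against 21.2%, and the share that rose 5.88%, against 15.0%. The median was -0.13 for members and -0.03 for all genes. Of the 14 called members, 11 changed at least 1.5-fold, again without the share over all called genes. The 10 members that fell at both durations were Mmp2, Mmp3, Mmp9, Mmp14, Mmp23, Adamts1, Adamts5, Adamtsl4, Timp2 and Timp4. Lox rose at both. The overlap of falls was not computed over all tested genes and is not read as a trait of the members. The 2 comparisons use separate arrays and share no control, but their calls share 1 estimate of the spread per gene over all 12 arrays. Scaling moves these counts: after subtracting from each array its median over tested genes (centring), the median gene lay at 0.14 at 1 week and 0.13 at 5 weeks and the median member at -0.07 and 0.03, and 10 members rose at 1 week in place of 3. The share of all calls that were rises went from 36.2% to 63.9% at 1 week and from 41.4% to 66.6% at 5 weeks with centring, and to 43.2% and 54.2% with quantile normalization. The 10 members that fell at both durations and Lox kept their calls with centring, and no called member turned its direction. With the mean over the probe sets of a gene in place of the brightest, Mmp14 (0.39) and Timp2 (0.24) turned their direction at 1 week, as did Timp3 (0.20) and Adamtsl5 (0.15).

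**Figure D1:**
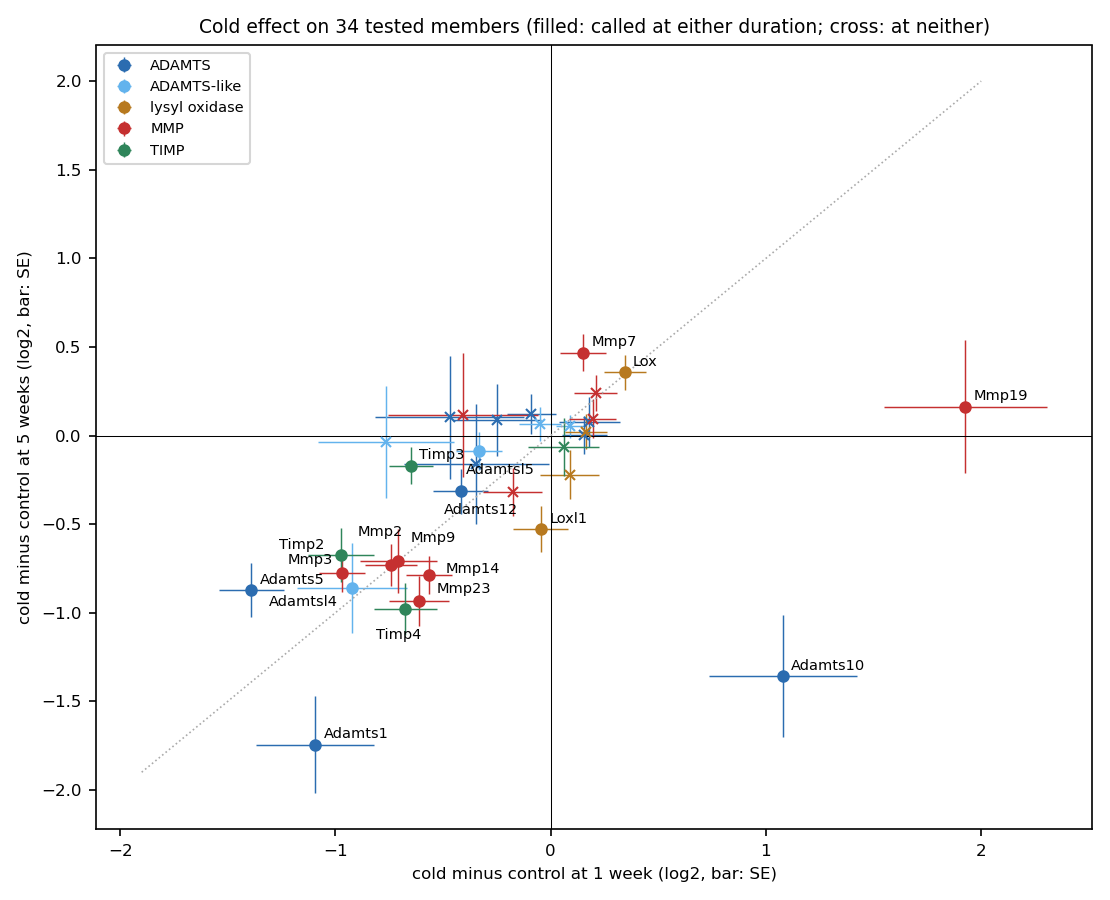
Cold effect on each of the 34 tested members, as cold minus control on the log2 scale, at 1 week (horizontal) and 5 weeks (vertical), with standard errors as bars and the family as colour. The 10 members that fell at both durations sit in the lower left, Lox in the upper right, and Adamts10 at 1.08 and -1.36 in the lower right; crosses are the 16 members called at neither duration.

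The gelatinases cleave denatured collagen and the collagen of basement membranes, and both fell. Mmp2, made mostly by fibroblasts, read log2 10.72, 11.01 and 10.88 on the control arrays and 10.31, 10.20 and 9.87 on the cold arrays at 1 week. The 5 week signals were 10.81, 10.78 and 10.68 in control and 9.94, 10.10 and 10.04 in cold. Every cold array lay below every control array of its duration, and the effect was -0.74 at 1 week (SE 0.12, adjusted p = 0.000469) and -0.73 at 5 weeks (SE 0.12, adjusted p = 0.000791). Mmp9, typical of neutrophils and macrophages, read 8.27, 8.28 and 8.12 in control and 7.89, 7.66 and 6.99 in cold at 1 week. Its 5 week values were 8.54, 8.45 and 8.44 in control and 7.80, 7.69 and 7.82 in cold. The groups did not overlap, and Mmp9 fell by 0.71 at both durations (SE 0.18, adjusted p = 0.00683 and 0.00989). Without cold array 3 of 1 week, the lowest at 6.99, the 1 week effect was -0.45. The second probe set of each gelatinase fell at both durations too. For Mmp9 that probe set, 1448291_at, fell by 0.74 at 1 week and by 2.08 at 5 weeks.

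Stromelysins have a broad range of substrates and can activate other proenzymes. Mmp3 (stromelysin 1) read 9.38, 9.50 and 9.40 in control and 8.37, 8.63 and 8.36 in cold at 1 week. At 5 weeks its signals were 9.19, 8.93 and 8.84 in control and 8.24, 8.20 and 8.19 in cold. All cold arrays were lower than all control arrays, and Mmp3 fell by 0.97 at 1 week (SE 0.11, adjusted p = 4.25e-05) and fell by 0.77 at 5 weeks (SE 0.11, adjusted p = 0.000265). Mmp11 (stromelysin 3) did not pass the test, at -0.18 and -0.32, and Mmp10 was too dim to test. Mmp7, or matrilysin, was near the floor of the array, at 3.96 to 4.74 over the 12 arrays. It rose by 0.47 at 5 weeks (SE 0.11, adjusted p = 0.00540), where cold arrays read 4.39 to 4.74 and control arrays 3.96 to 4.16. At 1 week its difference of 0.15 did not pass. Mmp12, the macrophage metalloelastase, passed at neither duration; its highest signal, 5.92, was on 1 control array of 1 week.

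Mmp14, the main membrane-type protease and a cell-surface collagenase, read 8.92, 9.32 and 9.09 in control and 8.63, 8.46 and 8.54 in cold at 1 week. At 5 weeks the control arrays gave 9.36, 9.25 and 9.30 and the cold arrays 8.47, 8.63 and 8.45. The groups did not overlap. The effect was -0.57 at 1 week (SE 0.11, adjusted p = 0.00125) and -0.79 at 5 weeks (SE 0.11, adjusted p = 0.000234). Its other tested probe sets did not repeat this at 1 week. Probe set 1416572_at read 6.02, 4.44 and 4.53 in 1 week control and 6.80, 5.87 and 7.27 in 1 week cold, a difference of 1.65 that did not pass (adjusted p = 0.0648). At 5 weeks it fell by 2.81 (adjusted p = 0.00849), and 1440920_at was at 0.08 and 0.09. Mmp17 and Mmp24, the other tested membrane-type proteases, lay between 0.10 and 0.24 and passed at neither duration.

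Mmp23, a protease of unusual structure without the common hemopexin domain, read 8.05, 8.44 and 8.03 in control and 7.71, 7.71 and 7.27 in cold at 1 week. It read 8.32, 8.18 and 8.37 in control and 7.34, 7.41 and 7.31 in cold at 5 weeks. Without overlap it fell by 0.61 at 1 week (SE 0.14, adjusted p = 0.00393) and fell by 0.93 at 5 weeks (SE 0.14, adjusted p = 0.000446). These values are those of its brightest probe set. The second Mmp23 probe set, 1417281_a_at, averaged 7.78 in control and 7.32 in cold at 1 week, without overlap. At 5 weeks it averaged 7.56 in control and 7.28 in cold, and its groups overlapped. Mmp19, a protease of many tissues that cleaves basement membrane proteins, went the other way at 1 week. Its control arrays read 5.53, 4.68 and 4.06 and its cold arrays 6.45, 6.17 and 7.43, a rise of 1.93 or 3.80-fold (SE 0.38, adjusted p = 0.00158). At 5 weeks control arrays read 4.75, 4.86 and 5.53 and cold arrays 5.11, 5.28 and 5.24, so the groups overlapped and the difference of 0.16 did not pass. A second probe set of Mmp19, 1421976_at, exceeded log2 4 on the 3 arrays of 1 week cold alone (4.57, 4.48 and 5.15), at least 1.66-fold above that floor. It passed the filter through that group, so it is no further support for the rise, and it has no difference at 5 weeks.

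**Figure D2:**
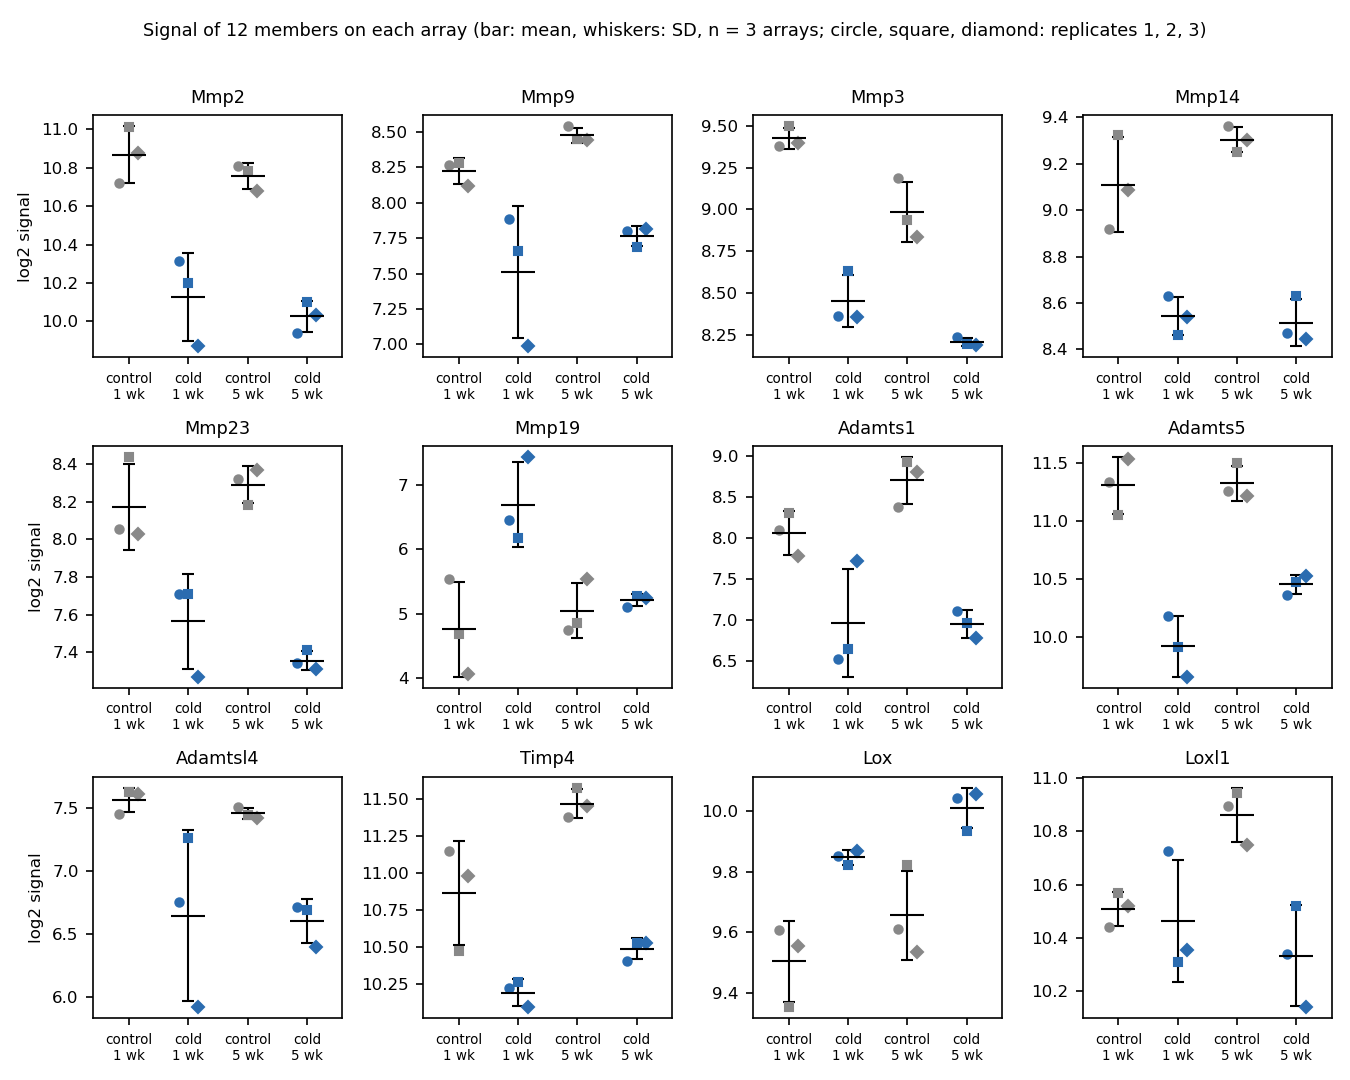
Log2 signal (vertical) of 12 members on each of the 12 arrays, by group, with the group mean and SD; each panel has its own scale. Cold arrays lie below control arrays at both durations for Mmp2, Mmp9, Mmp3, Mmp14, Mmp23, Adamts1, Adamts5, Adamtsl4 and Timp4, Lox lies above, and Mmp19 is raised at 1 week.

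Among the ADAMTS proteoglycanases, Adamts1 and Adamts5 fell and the other 4 tested did not pass. Adamts5, a main aggrecan- and versican-cleaving enzyme, read 11.34, 11.05 and 11.53 in control and 10.18, 9.91 and 9.66 in cold at 1 week. It read 11.26, 11.50 and 11.22 in control and 10.36, 10.47 and 10.52 in cold at 5 weeks. The cold arrays were lower throughout. Adamts5 fell by 1.39 at 1 week (2.62-fold; SE 0.15, adjusted p = 3.99e-05) and fell by 0.87 at 5 weeks (1.83-fold; SE 0.15, adjusted p = 0.00115), and its 3 tested probe sets fell at both durations; another was too dim to test. Adamts1, which cleaves versican and has anti-angiogenic activity, read 8.10, 8.31 and 7.78 in control and 6.53, 6.66 and 7.72 in cold at 1 week. At 5 weeks the values were 8.38, 8.92 and 8.80 in control and 7.12, 6.97 and 6.78 in cold. Its groups did not overlap, although cold array 3 of 1 week (7.72) was close to control array 3 (7.78). Adamts1 fell by 1.09 (SE 0.28, adjusted p = 0.00678) and fell by 1.74, or 3.35-fold (SE 0.28, adjusted p = 0.000635). Both genes lie side by side on chromosome 16 in the order of the RefSeq gene table. Adamts4, Adamts9 and Adamts15 lay between -0.090 and 0.18 at 1 week and between 0.0041 and 0.12 at 5 weeks. Adamts20 averaged under log2 4 in every group and was below it on all 3 arrays of 1 week cold, so no difference is given for it.

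Adamts10, which binds fibrillin, was called in opposite directions. It read 6.25, 5.28 and 5.34 in control and 6.74, 6.40 and 6.96 in cold at 1 week, a rise of 1.08 (SE 0.34, adjusted p = 0.0227). That call was lost without cold array 1 or 3 or control array 2 or 3 of 1 week. At 5 weeks it read 7.28, 6.97 and 7.32 in control and 6.07, 6.43 and 5.00 in cold, a difference of -1.36 (SE 0.34, adjusted p = 0.0102). The groups did not overlap at either duration. The lowest values, in 1 week control arrays 2 and 3 and in 5 weeks cold array 3, were on the 3 arrays with the highest Gapdh 3′ minus 5′ difference. Its second probe set, 1441309_at, differed by 0.14 and 0.18 and passed at neither duration. Adamts12 fell by 0.42 at 1 week with overlapping groups (adjusted p = 0.0178), and its -0.31 at 5 weeks did not pass. Its 1 week call was lost without cold array 2 or control array 2 or 3 of 1 week.

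Of 5 tested ADAMTS-like genes, Adamtsl4, whose protein binds fibrillin microfibrils, fell at both durations. It read 7.45, 7.63 and 7.61 in control and 6.75, 7.26 and 5.92 in cold at 1 week. The 5 week values were 7.51, 7.44 and 7.42 in control and 6.72, 6.69 and 6.40 in cold. Cold arrays were lower without overlap; the effect was -0.92 at 1 week (SE 0.25, adjusted p = 0.0108) and -0.86 at 5 weeks (SE 0.25, adjusted p = 0.0215). The 5 week call was lost on leaving out any of the 3 control arrays of 5 weeks or the third cold array, with effects of -0.92 to -0.76 over all single omissions. At 1 week the effect ranged from -1.23 to -0.56, the smaller value without cold array 3 (5.92), and the call was not lost. Adamtsl5 fell by 0.33 at 1 week on its brightest probe set (adjusted p = 0.0226), while its second probe set, 1420336_at, rose by 0.64. The Adamtsl5 call was lost without cold array 1 or control array 2 of 1 week. Adamtsl1, Adamtsl2 and Adamtsl3 passed at neither duration.

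Of the 4 inhibitors Timp2 and Timp4 fell at both durations on their brightest probe sets, Timp3 fell at 1 week, and Timp1 passed at neither. Timp1, the inducible inhibitor, read 5.80, 5.57 and 5.52 in control and 5.63, 6.08 and 5.35 in cold at 1 week. Its 5 week signals were 5.54, 5.87 and 5.54 in control and 5.61, 5.56 and 5.57 in cold. The groups overlapped, and the differences of 0.06 (SE 0.16, adjusted p = 0.773) and -0.06 (SE 0.16, adjusted p = 0.789) did not pass, which does not show that Timp1 stayed level. Timp4, an inhibitor of restricted expression that is abundant in heart and fat, read 11.15, 10.48 and 10.98 in control and 10.22, 10.27 and 10.09 in cold at 1 week. Its 5 week signals were 11.38, 11.58 and 11.45 in control and 10.41, 10.53 and 10.53 in cold. There was no overlap, and Timp4 fell by 0.67 (SE 0.15, adjusted p = 0.00288) and fell by 0.98 (SE 0.15, adjusted p = 0.000444). The second Timp4 probe set, 1450974_at, was at -0.15 at 1 week, which did not pass, and fell by 1.59 at 5 weeks.

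Timp2 had 6 probe sets, 5 of them tested. The brightest, 1454677_at, read 12.33, 12.85 and 12.69 in control and 11.80, 11.81 and 11.34 in cold at 1 week. It read 12.32, 12.23 and 12.13 in control and 11.48, 11.66 and 11.52 in cold at 5 weeks. Cold arrays were lower without overlap, with effects of -0.97 (SE 0.15, adjusted p = 0.000387) and -0.67 (SE 0.15, adjusted p = 0.00542). Probe sets 1433662_s_at and 1460287_at fell at both durations, with effects of -0.48 and -0.35 at 1 week and -0.67 and -0.74 at 5 weeks. Probe set 1450040_at was at 0.12 at 1 week, which did not pass, and fell by 0.79 at 5 weeks. The fifth, 1420924_at, read 7.72, 4.00 and 4.00 in control and 8.88, 7.09 and 8.36 in cold at 1 week, a rise of 2.87 (adjusted p = 0.0423 over 22391 probe sets). At 5 weeks it read 9.34, 9.51 and 9.30 in control and 5.60, 7.64 and 4.02 in cold, a difference of -3.63 (adjusted p = 0.0206). Its 3 lowest signals were on 1 week control arrays 2 and 3 and 5 weeks cold array 3, the arrays with the highest Gapdh difference. All 5 tested probe sets of Timp2 fell at 5 weeks, and at 1 week 3 fell, 1 rose and 1 did not pass.

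The 4 probe sets of Timp3, an inhibitor bound to the matrix, also diverged. The brightest, 1449335_at, read 10.28, 10.27 and 9.99 in control and 9.54, 9.65 and 9.40 in cold at 1 week, an effect of -0.65 without overlap (SE 0.10, adjusted p = 0.000454). At 5 weeks it read 10.18, 10.05 and 9.99 in control and 9.83, 9.97 and 9.90 in cold, and the difference of -0.17 did not pass (adjusted p = 0.228), although the groups did not overlap. The other 3 probe sets behaved otherwise. At 1 week 1419089_at (0.07) and 1449334_at (0.22) did not pass, and 1419088_at rose by 1.18, from 6.00, 5.89 and 6.10 to 6.92, 7.05 and 7.57. At 5 weeks these 3 fell, at -0.91, -1.02 and -0.88. All 4 probe sets of Timp3 were thus lower in the cold at 5 weeks, 3 of them past the threshold, and at 1 week 1 fell, 1 rose and 2 did not pass. Which stretch of the transcript each probe set reads was not analysed here.

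**Figure D3:**
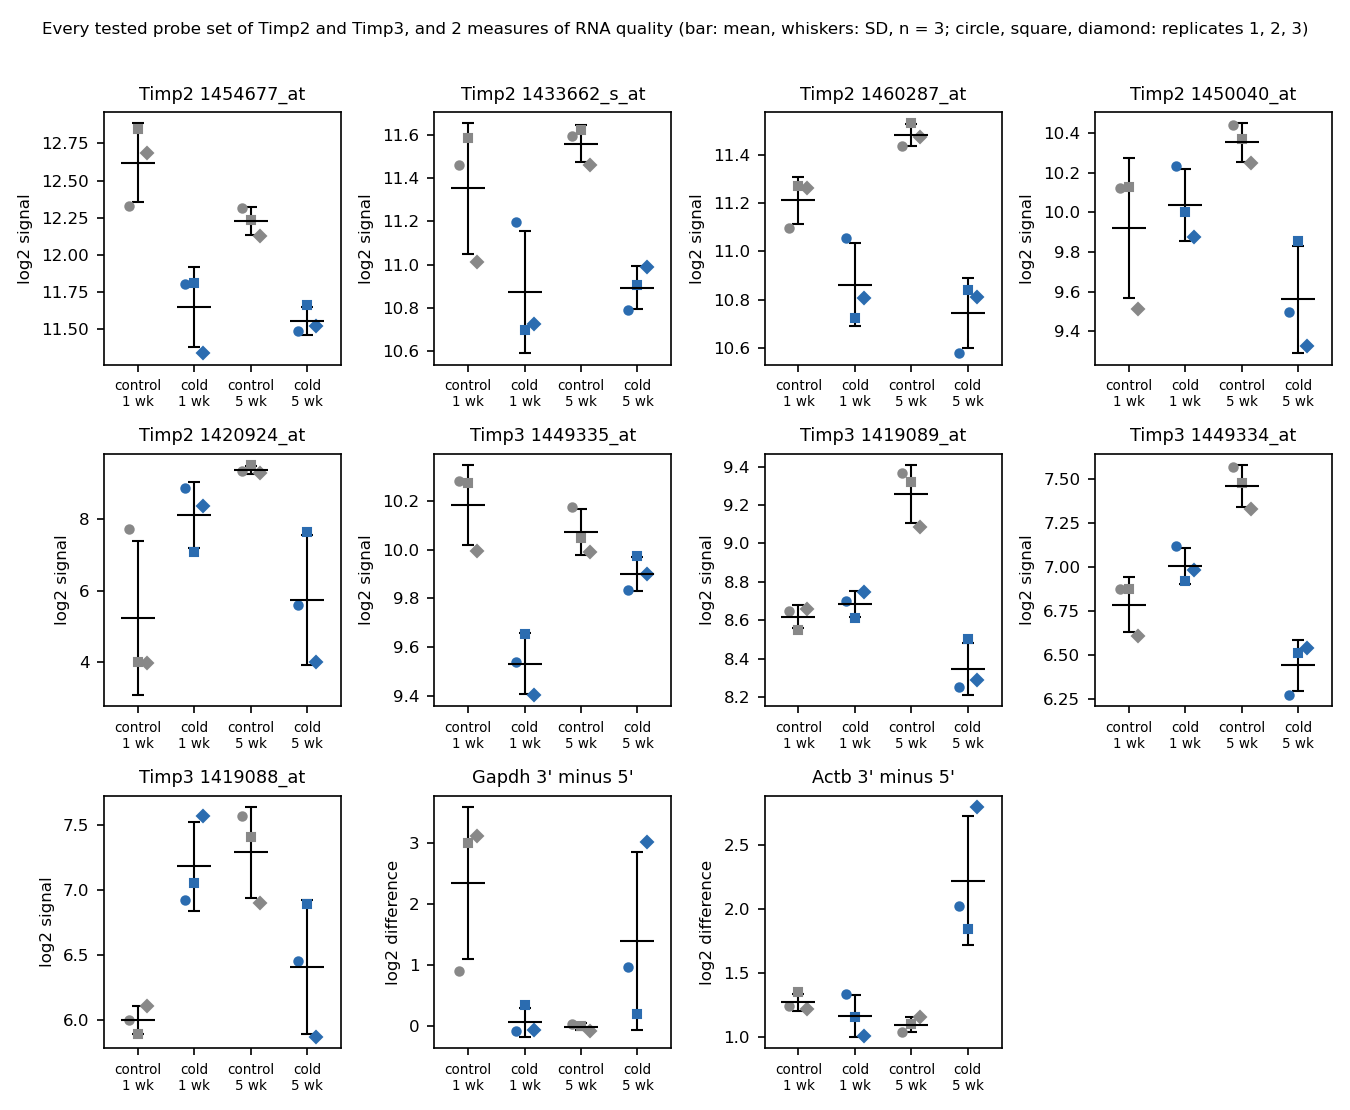
Log2 signal (vertical) of every tested probe set of Timp2 and Timp3 on each array, with group mean and SD, and the 3′ minus 5′ difference of the Gapdh and Actb control probe sets in log2 units. Cold arrays of 5 weeks lie below the controls of 5 weeks on all 9 probe sets, whereas at 1 week Timp2 1420924_at and Timp3 1419088_at rise and Timp2 1454677_at and Timp3 1449335_at fall; the Gapdh difference is highest, at 3.00 to 3.12, on 2 arrays of 1 week control and 1 of 5 weeks cold.

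Over all members with more than 1 tested probe set, which were 15, the probe sets were called in opposite directions in 3 at 1 week (Adamtsl5, Timp2 and Timp3) and differed in sign in 5. At 5 weeks 4 of the 15 differed in sign. Of all 57 tested probe sets of members, 20 fell and 9 rose at 1 week, against 27.2% and 18.5% of 22391 probe sets in all. At 5 weeks 25 fell and 2 rose, against 20.0% and 13.0%, or 27 called, against 33.0%. For the difference of the cold effects 13 of the 57 were called, against 20.3%. Among the 13 was Mmp19 1421976_at, which passed the filter through 1 week cold alone.

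Lysyl oxidases did not move together. Lox, which starts the cross-linking of collagen and elastin, read 9.61, 9.35 and 9.55 in control and 9.85, 9.82 and 9.87 in cold at 1 week. It read 9.61, 9.82 and 9.54 in control and 10.04, 9.94 and 10.06 in cold at 5 weeks. The cold arrays were higher without overlap, by 0.34 (1.27-fold; SE 0.10, adjusted p = 0.0125) and 0.36 (1.28-fold; SE 0.10, adjusted p = 0.0147). The second Lox probe set, 1448228_at, rose by 0.89 at 1 week and was at 0.10 at 5 weeks, which did not pass. The 1 week call was lost without 1 week control array 2 and the 5 week call without 5 weeks control array 1 or 3. Loxl1, needed for elastic fibres, read 10.44, 10.57 and 10.52 in control and 10.73, 10.31 and 10.35 in cold at 1 week, where its difference of -0.05 did not pass. At 5 weeks it read 10.90, 10.94 and 10.75 in control and 10.34, 10.52 and 10.14 in cold and fell by 0.53 (1.44-fold; SE 0.13, adjusted p = 0.00797). A dimmer Loxl1 probe set, 1436063_at, read 4.38, 4.32 and 4.56 in 5 weeks control. In 5 weeks cold it read 3.94, 4.18 and 4.76, so its groups overlapped. With the mean over the probe sets of a gene, the 5 week calls of Lox and Loxl1 were lost. Loxl3 and Loxl4 lay between -0.22 and 0.17 and passed at neither duration. Loxl2 had no probe set of its own. A probe set shared by Loxl2 and Gm21451 read 8.10 to 8.52 in control and 7.17 to 7.80 in cold at 1 week, and 7.57 to 7.79 and 7.15 to 7.32 at 5 weeks, and was not tested.

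The difference of the 2 cold effects asks whether 5 weeks in the cold act otherwise than 1 week. Of the 34 members 3 were called, or 8.82%, against 19.9% of all tested genes; 2 of them fell, against 8.39%, and 1 rose, against 11.5%. The effect at 5 weeks minus that at 1 week was -2.43 for Adamts10 (SE 0.49, adjusted p = 0.00951), -1.76 for Mmp19 (SE 0.53, adjusted p = 0.0404) and 0.48 for the brightest probe set of Timp3 (SE 0.15, adjusted p = 0.0421). The other 3 probe sets of Timp3 were called the opposite way in this test, at -0.98, -1.24 and -2.06, and the mean over its probe sets gave -0.95, so Timp3 has no settled direction here. The Mmp19 call was lost without any of 10 arrays, that is all but 1 week cold array 2 and 1 week control array 1, over a range of -2.15 to -1.39. The Timp3 call was lost without any of 10 as well, all but 1 week cold array 2 and 1 week control array 3, over a range of 0.41 to 0.57. Without the 3 arrays of highest Gapdh difference, or with either RNA quality measure as a covariate, 0 of 34 members were called by limma; 4 members without those arrays, 3 with the Gapdh covariate and 2 with the Actb covariate had an unadjusted p under 0.05. Between the cold groups, Adamts5 (by 0.54) and the brightest probe set of Timp3 (by 0.37) were higher at 5 weeks than at 1 week, and Mmp19 was lower (-1.48); these are 3 members of 34, against 27.5% of all genes. The other 3 Timp3 probe sets fell between the cold groups, by 0.34, 0.56 and 0.77, and the mean over its probe sets was -0.33. The Adamts5 call was lost without 1 week cold array 3 or 5 weeks cold array 2 or 3, that of Mmp19 without 1 week cold array 3, and that of Timp3 without 1 week cold array 1 or 3 or 5 weeks cold array 2 or 3. Between the controls Adamts10 was called, 1.57 higher at 5 weeks, as 1 of 34 members against 2.55% of all genes, and this call was lost on leaving out any of 7 single arrays, the 3 controls of 5 weeks among them.

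The 16 members called at neither duration were Timp1, Loxl3, Loxl4, Mmp11, Mmp12, Mmp17, Mmp24, Adamts4, Adamts6, Adamts9, Adamts15, Adamts16, Adamts20, Adamtsl1, Adamtsl2 and Adamtsl3. Their differences ran from -0.77 to 0.21 at 1 week and from -0.32 to 0.24 at 5 weeks. Another 12 members were too dim to test. They were the collagenases Mmp1a, Mmp1b, Mmp8 and Mmp13, with Mmp10, Mmp16, Mmp20, Adamts3, Adamts7, Adamts8, Adamts18 and Adamts19, whose highest signal on any array was 2.32 to 4.17. Adamts8 passed log2 4 on 1 array and the others on none, where 3 were required, which does not show that these genes are absent. A run of 10 Mmp genes lies together on chromosome 9 in the RefSeq table, and 9 of them are members; Mmp12, Mmp3 and Mmp7 were the 3 bright enough to test, and they did not share a direction.

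With the Gapdh 3′ minus 5′ difference as a covariate, 8 of the 16 calls at 1 week were kept, and all 8 were falls: Mmp2, Mmp3, Mmp14, Adamts1, Adamts5, Timp2, Timp3 and Timp4. Without 1 week control arrays 2 and 3, which leaves 1 control array assumed to vary like the other groups, 6 falls were kept: Mmp2, Mmp3, Adamts5, Timp2, Timp3 and Timp4. The 3 rises at 1 week were kept in neither. With the covariate Lox was at 0.33 (adjusted p = 0.122), Mmp19 at 1.33 (adjusted p = 0.0799) and Adamts10 at -0.033 (adjusted p = 0.906). At 5 weeks 13 of 14 calls were kept with the Gapdh covariate. With the Actb covariate 1 of 14 was kept (Mmp7), and Adamts10 turned to 0.21. At 1 week the Actb covariate kept all 16 calls. The Actb difference overlapped there, at 1.01 to 1.33 in cold and 1.22 to 1.35 in control. The Gapdh difference did not overlap between cold and control at either duration, and the Actb difference did not overlap at 5 weeks. The part of RNA quality and that of cold cannot be told apart in these comparisons, so kept and lost calls do not separate them.

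**Figure D4:**
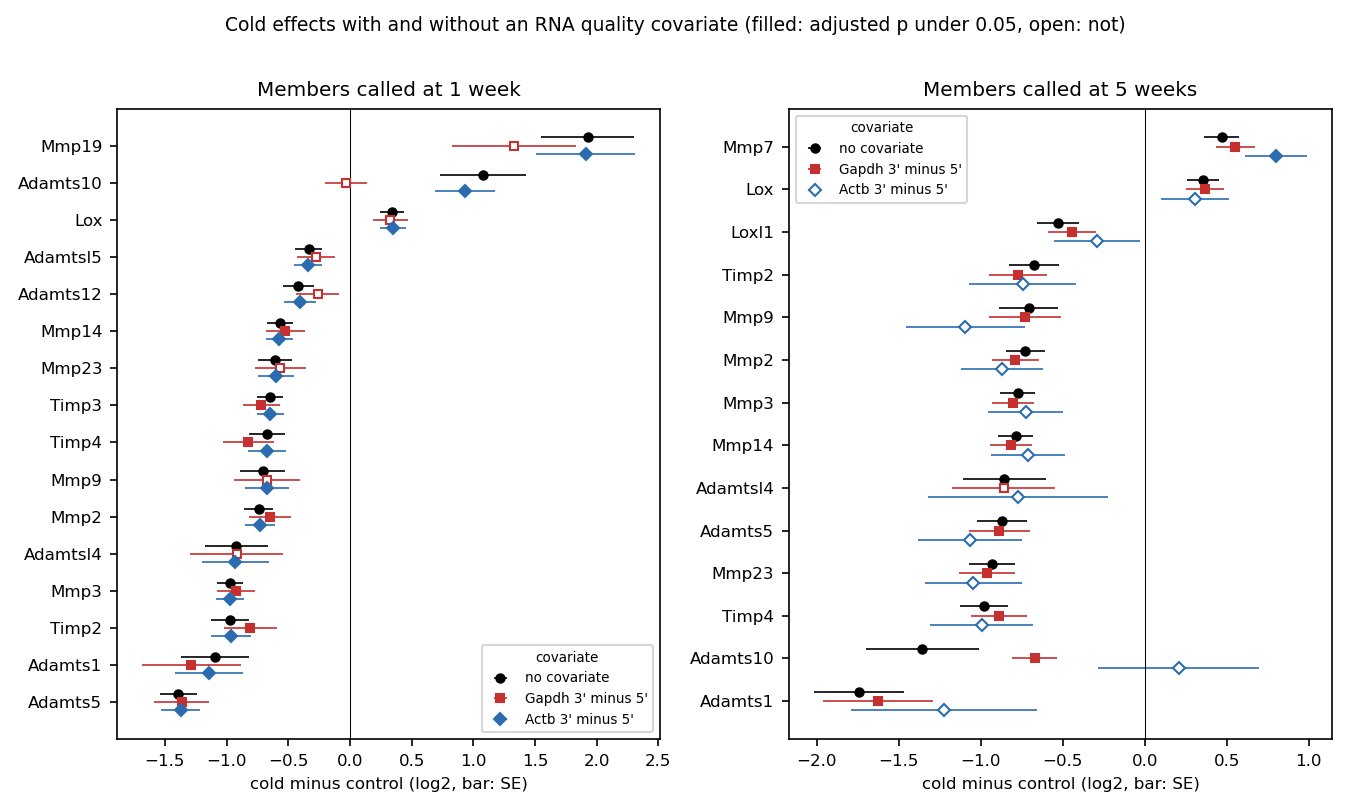
Cold minus control on the log2 scale (horizontal, with standard errors) for the members called at 1 week (left) and 5 weeks (right), without a covariate and with the Gapdh or the Actb 3′ minus 5′ difference as one; filled symbols have an adjusted p under 0.05. At 1 week 8 falls stay filled with the Gapdh covariate, where Adamts10 moves to -0.033, and all 16 members with the Actb covariate. At 5 weeks 1 member stays filled with the Actb covariate.

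Markers of stromal and immune cells are given beside these falls. Of all tested genes 31.6% fell at 1 week and 21.2% at 5 weeks. Of 11 tested fibroblast and progenitor markers 10 fell at 1 week and 8 at 5 weeks; their mean signal was 11.02 to 11.23 in control and 10.33 to 10.55 in cold at 1 week, and 10.75 to 10.88 and 10.30 to 10.43 at 5 weeks. Of 12 macrophage markers 9 fell at each duration, with means of 9.91 to 10.00 against 9.26 to 9.45 and 9.98 to 10.01 against 9.23 to 9.34. Neutrophil markers, 7 tested, averaged 6.21 to 6.62 against 5.41 to 5.74 and 6.34 to 6.56 against 5.69 to 6.03, and 2 and 3 of them fell. Of 10 endothelial markers 4 rose and 1 fell at 1 week and 2 fell at 5 weeks, of 9 pericyte and smooth muscle markers 1 rose and 1 fell, then 2 and 2, and of 8 white adipocyte markers 1 rose and 3 fell at each duration. In whole tissue, fewer cells of a type and less RNA per cell cannot be told apart, and the part of these cells in the members' falls was not tested. Of 18 tested skeletal muscle markers, 2 rose at 1 week and 10 fell at 5 weeks. With their mean as a covariate all 16 calls at 1 week were kept, and at 5 weeks 9 of 14, the others being Adamtsl4, Lox, Mmp7, Mmp9 and Timp2. At 5 weeks their mean did not overlap between cold and control, so its part and that of cold cannot be told apart there. The 3 control arrays of 5 weeks were the most alike of any group (mean r 0.997 to 0.998); averaged and counted as 1 array, they left 7 of the 14 calls at 5 weeks, and those lost were Adamts10, Adamtsl4, Lox, Loxl1, Mmp7, Mmp9 and Timp2.

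Most genes of the proteins that these enzymes act on fell. Of 25 tested matrix substrates 18 fell at 1 week (median -0.53) and 21 at 5 weeks (median -0.62). Examples are Vcan, encoding versican, a target of Adamts1 and Adamts5, at -1.38 (SE 0.18), Fn1 (fibronectin) at -1.02 and the collagen VI chain Col6a3 at -0.80 at 1 week, and Col6a1 at -0.92 and Fbln5, which organises elastic fibres with Loxl1, at -0.92 at 5 weeks. Of 20 tested proteases of other families 13 fell and 1 rose at 1 week, with a median of -0.48, and 11 fell and 2 rose at 5 weeks, with a median of -0.43. Fap, a fibroblast surface protease, was at -1.15 and Ctss, a cathepsin of macrophages, at -1.10 at 1 week, while Adam12, of the ADAM family, rose by 1.06 at 1 week and by 0.90 at 5 weeks. Of 9 tested other inhibitors and receptors 3 fell at each duration and 1 rose at 1 week (A2m, a broad protease inhibitor, at 0.21), against 31.6% and 21.2% of all genes that fell. Those that fell included Reck, a membrane-anchored inhibitor of Mmp14, at -0.84 at 1 week, and Lrp1, which takes up protease complexes, at -0.79 at 5 weeks. Of 13 tested genes of collagen processing and cross-linking 6 fell at 1 week, such as Pcolce2 (-1.12), an enhancer of procollagen trimming, and 7 fell and 1 rose at 5 weeks, such as the collagen chaperone Serpinh1 (-1.27) and the lysyl hydroxylase Plod3 (-1.04). These lists are given by counts and medians, and the differences between lists were not tested.

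**Figure D5:**
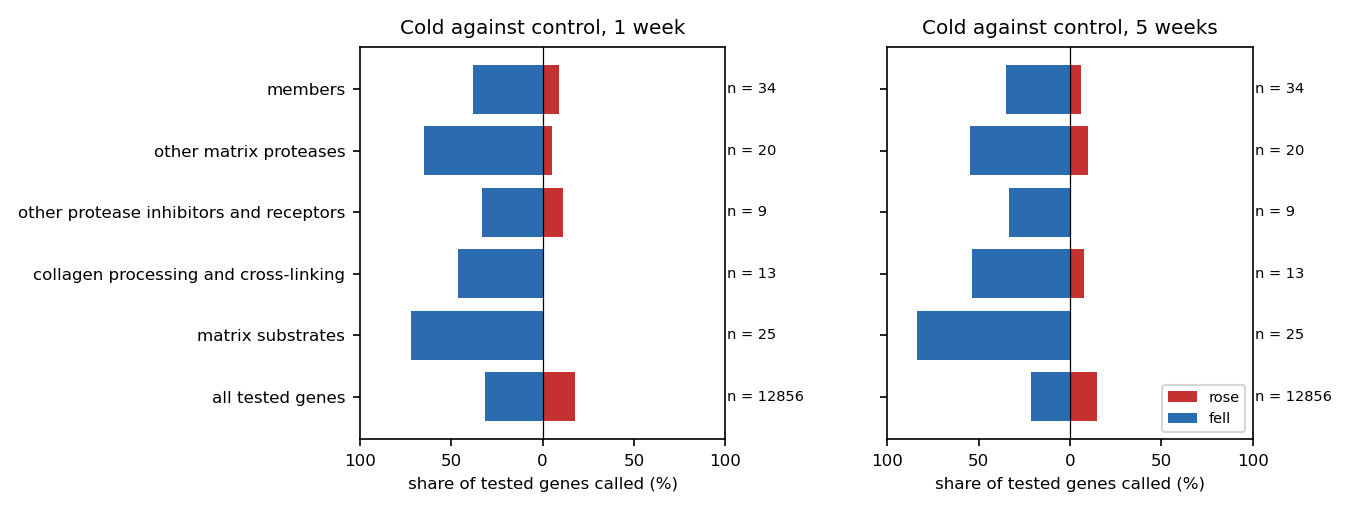
Share of the tested genes of each list that rose (right of 0) or fell (left of 0) with cold at 1 week and at 5 weeks, in percent, with the number tested beside each bar. Members fell in 38.2% and 35.3%, against 31.6% and 21.2% of all tested genes, beside other matrix proteases, other inhibitors and receptors, collagen processing genes, and matrix substrates, of which 18 and 21 of 25 fell.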

How the data were processed

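Gene expression was measured on Affymetrix arrays in 12 samples, 3 in each of 4 groups. The authors deposited log2 signals per probe set, made with GCRMA, a background correction, between-array normalization and probe summary, per the submitters' processing notes. Its version was not given in the sources read. The table had 0 missing values. Symbols came from the array annotation, and 34754 of the 34958 that stand alone on a probe set were brought up to date by gene identifier; 932 probe sets name several genes and 9211 none.

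A probe set was tested if it exceeded log2 4 on at least 3 arrays. Per gene the brightest such probe set was kept. Fits with lmFit and eBayes (limma 3.58.1, R 4.3.3) on 4 group means over all arrays gave 5 contrasts, adjusted by Benjamini-Hochberg over 12856 genes, or over 22391 probe sets where a probe set is named; the fit was tested on simulated data. "Rose" and "fell" mean an adjusted p under 0.05. The number of arrays limits the precision. Values per array are given for members called with a change of at least 1.5-fold, the TIMPs, Mmp2, Mmp14, Lox, Loxl1 and members whose cold effects differed between durations; of other lists up to 4 members with the smallest adjusted p were eligible. Members and lists were chosen with earlier results of these data known, so they are described by counts and medians and have no list test. Replicate numbers are shared by the groups, but same-numbered arrays did not deviate together (r -0.11 to 0.18 over 18 pairs), so no block was used. Alternatives covered scaling, filters, probe sets, RNA quality, muscle RNA, the variance model and left-out arrays. Promoters and gene order came from RefSeq tables of GRCm38.p6; motifs were searched on both strands.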

Additional observations from a re-analysis of the deposited data

Results flagged for a closer look

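Cold effects that differed between durations, by the test of that difference, are listed here; the value is the effect at 5 weeks minus the effect at 1 week on the log2 scale. Per gene they were Adamts10 (-2.43), Mmp19 (-1.76) and Timp3 (0.48, its brightest probe set).

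Among single probe sets, tested over 22391, the largest difference was that of Timp2 1420924_at (-6.50), followed by Mmp14 1416572_at (-4.47), Adamts10 1427139_at (-2.43) and Timp3 1419088_at (-2.06). Those of Mmp19 1421977_at (-1.76), Timp4 1450974_at (-1.44), Mmp9 1448291_at (-1.34), Timp3 1449334_at (-1.24) and Mmp19 1421976_at (-1.14) were next. Mmp19 1421976_at passed the filter through 1 week cold alone and lay under log2 4 on every array of the other groups, so its value has no support from them. Smaller differences were seen for Timp3 1419089_at (-0.98), Timp2 1450040_at (-0.91) and Lox 1448228_at (-0.79). The 1 positive difference was that of Timp3 1449335_at (0.48), against 3 negative ones for the other Timp3 probe sets. Of 57 tested probe sets of members 12 were lower, Mmp19 1421976_at among them, and 1 higher, against 10.5% and 9.85% of all tested probe sets.

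The Gapdh 3′ minus 5′ difference was high in 1 week control (0.90, 3.00 and 3.12) and in arrays 1 and 3 of 5 weeks cold (0.96 and 3.01), and low in 1 week cold and 5 weeks control. Timp2 1420924_at had its lowest signals on 1 week control arrays 2 and 3 and 5 weeks cold array 3, the 3 arrays with the highest Gapdh difference. On the same arrays Mmp14 1416572_at read 4.44, 4.53 and 2.99, and it read 4.50 on 5 weeks cold array 1. The part of RNA quality in these differences was not tested beyond the covariates and the left-out arrays. With the Gapdh difference as a covariate, 3 of 12856 genes were called in the test of the difference between durations, in place of 2552.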

How the results depend on the processing

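The number of arrays limits every value, and the fits with 1 array in a group assume that it varies like the others. Counts are of genes, or of members where stated.

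At 1 week (6362 genes; 13 members fell, 3 rose), the Gapdh covariate gave 3036 genes, 8 falls and 0 rises (2 rises at an unadjusted p under 0.05, limma). Without control_1wk 2 and 3 together it was 2885 genes, 6 falls and 0 rises (2 unadjusted), and without cold_5wk 3 as well, an alternative chosen after seeing the data, 3157 genes, 6 and 0 (2 unadjusted). Centring gave 10 rises and no filter on low signals 5. At 5 weeks (4654 genes; 12 fell, 2 rose), the Actb covariate gave 795 genes, 0 falls (8 unadjusted) and 1 rise, the muscle covariate 2425 genes and 0 rises (1 unadjusted), and control_5wk averaged 1608 genes, 7 falls and 0 rises (2 unadjusted). The filter at log2 6 and the mean over probe sets gave 1 rise, and no filter 4.

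For the difference of the cold effects (2552 genes, 3 members), the Actb covariate gave 0 genes (1004 unadjusted) and 0 members (2 unadjusted), the Gapdh covariate 3 genes and 0 members (3 unadjusted), and control_5wk averaged 1 gene and 0 members (3 unadjusted). Without control_1wk 2 and 3 it was 133 genes and 0 members (6 unadjusted), and without cold_5wk 3 as well 160 genes and 0 members (4 unadjusted). The muscle covariate gave 796 genes and 1 member, and the mean over probe sets 7 members.

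For 5 weeks against 1 week in cold (3535 genes, 3 members), the Actb covariate gave 5 genes and 0 members (2 unadjusted), the Gapdh covariate 1885 genes and 1 member, the fit of 2 groups 2130 genes, and leaving out the 3 arrays of high Gapdh difference 2252 genes. In control (328 genes, 1 member), the counts were 30 genes with the Gapdh covariate, 205 with the muscle covariate, 13 with control_5wk averaged, 48 without control_1wk 2 and 3, and 43 without cold_5wk 3 as well. Members called there were 0 with the Gapdh covariate (4 unadjusted), no filter (8), the replicate block (8), control_5wk averaged (3) and the arrays left out together (6 and 8), 2 with centring, the eBayes trend and quantile normalization, 3 with the filter at log2 6, and 4 with the mean over probe sets.

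Leaving out 1 array at a time gave 5311 to 6478 genes at 1 week with 11 to 14 falls and 1 to 3 rises, and 3513 to 4998 at 5 weeks with 11 to 13 falls and 1 to 2 rises. For the difference of the cold effects it gave 1383 to 3022 genes and 1 to 3 members, for cold 2054 to 3715 genes and 0 to 4 members, and for control 61 to 841 genes and 0 to 3 members.

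With the replicate block the counts were 6291 genes at 1 week, 4570 at 5 weeks, 2457 for the difference of the cold effects, 3484 in cold and 257 in control; it gained Adamtsl1 at 1 week and lost Mmp19 in the difference and Adamts10 in control. The numbers are shared without evidence of pairing (different-number pairs, r -0.29 to 0.19).

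Signs turned, counting sign changes where either value was called, for Adamts10 at 1 week with the Gapdh covariate (-0.033) and at 5 weeks with the Actb covariate (0.21), for Timp2 1420924_at at 1 week with the Gapdh covariate (-0.42), and for Timp3 1419088_at with the Actb covariate at 5 weeks (0.39) and in cold (0.42). With the mean over probe sets they turned at 1 week for Adamtsl5 (0.15), Mmp14 (0.39), Timp2 (0.24) and Timp3 (0.20), in the difference of the cold effects for Mmp9 (-0.67), Timp2 (-1.54) and Timp3 (-0.95), and for Timp3 in cold (-0.33) and in control (0.62). The cause was not tested. For Mmp19 1421976_at at 1 week, under log2 4 on every control array, the lower bound was 0.73 with that floor and 0.94 with a floor of log2 3. The fit of 2 groups gives no value for the difference of the cold effects.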
